A study of Mus musculus with 12 samples.

Results

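Haematopoietic stem and progenitor cells sit at the top of blood formation, and 9 genes known for their function there were followed through postnatal life in sorted neutrophils. The genes were Cd34, Prom1, Gata2, Lmo2, Erg, Hoxa9, Meis1, Hlf and Sox4. They were picked by name and found by symbol among the 38887 gene identifiers of the deposited count table. The cells were Ly6G+ cells from mouse spleen, sorted by a surface protein of neutrophils and called polymorphonuclear myeloid-derived suppressor cells by the submitters at every age. Polyadenylated RNA was sequenced at 4 ages, namely 2 days, 7 days, 14 days and 6 weeks after birth, with 3 libraries at each and 12 in all. The study asks what governs a suppressive capacity that neutrophils hold for a short time after birth. Age is the only factor in the labels, which state no genotype, strain, sex or number of mice per library. The p-values therefore reflect how far libraries of an age lay apart, a spread that may be technical.

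In a mouse, blood formation moves from the fetal liver to the bone marrow around birth, and the neonatal spleen is itself a blood-forming organ for some weeks. Stem cells carry surface proteins such as CD34 and prominin 1 and depend on a set of transcription factors. GATA2, LMO2 and ERG bind together with TAL1, LYL1, RUNX1 and FLI1 at many stem cell enhancers, HOXA9 acts with its cofactor MEIS1, and HLF marks the most immature cells. Most of these genes are switched off as granulocytes mature. Several also work in other cells that a spleen sort can carry along, such as mast cells (Gata2, Cd34), endothelium (Cd34, Erg) and lymphoid precursors (Sox4, Erg).

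The libraries held 34495767 to 38795913 counts each, so counting error was small except for the rarest transcripts. Neutrophil markers were high in every library: the 11 chosen, led by Ngp and S100a9, summed to 66594 to 102288 CPM (counts scaled to the normalized library size). Normalization factors ran from 0.8275 in 2-day replicate 2 to 1.103, and 2-day replicate 2 and 14-day replicate 1 lay apart from their partners in several genes below. Transcripts of 4 Y-linked genes summed to 0 or 1 count in each 14-day and 6-week library, against 1816 to 4010 counts in each 2-day and 7-day library, so the sex of the mice cannot be told apart from age across that line. Markers of other myeloid and lymphoid cells were present too. Those of monocytes and macrophages (led by Csf1r and Ly6c2) summed to 4041 to 4354 CPM at 6 weeks, against 825 to 1152 CPM at 2 days. Those of dendritic cells (H2-Ab1, Itgax) summed to 705 to 901 CPM at 6 weeks, against 108 to 134 CPM at 2 days, and those of T and NK cells (Cd3d, Cd4) to 101 to 122 CPM, against 49.3 to 54.1 CPM at 2 days. Megakaryocyte and platelet markers (Itgb3, Itga2b) summed to 94.9 to 128 CPM at 2 days, 74.4 to 102 at 7 days, 111 to 123 at 14 days and 68.7 to 76.7 CPM at 6 weeks, and Gp6 had no count at 6 weeks.

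Promoter sequence of 8 of the 9 genes was at hand, from RefSeq on GRCm38.p6, as windows of 250 bases before to 50 bases after each annotated start. Printed here are those of Gata2 and Cd34, the pair whose transcripts were most abundant at 2 days relative to 6 weeks, and of Hlf and Sox4, which were highest at 7 days. Gata2 has a pair of annotated starts, on the plus strand at chr6:88193641-88193940 (first) and chr6:88198414-88198713 (second). The Cd34 window is chr1:194938571-194938870 on the plus strand, and those of Hlf, chr11:90390868-90391167, and Sox4, chr13:28953650-28953949, lie on the minus strand. Each is written 5′ to 3′ as read on the strand of its gene, and capitals mark matches to the motifs listed after the sequences.
Gata2 first start: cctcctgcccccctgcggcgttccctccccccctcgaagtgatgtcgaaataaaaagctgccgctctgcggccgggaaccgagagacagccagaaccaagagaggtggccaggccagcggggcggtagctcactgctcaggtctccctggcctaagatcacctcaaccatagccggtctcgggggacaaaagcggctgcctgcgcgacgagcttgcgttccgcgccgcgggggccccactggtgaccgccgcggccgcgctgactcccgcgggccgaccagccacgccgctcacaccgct
Gata2 second start: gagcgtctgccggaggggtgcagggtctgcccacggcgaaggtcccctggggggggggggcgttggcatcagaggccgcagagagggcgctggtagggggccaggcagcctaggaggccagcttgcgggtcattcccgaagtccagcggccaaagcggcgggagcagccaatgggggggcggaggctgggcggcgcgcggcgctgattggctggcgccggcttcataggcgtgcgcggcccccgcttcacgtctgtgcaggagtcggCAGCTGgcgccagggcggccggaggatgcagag
Cd34: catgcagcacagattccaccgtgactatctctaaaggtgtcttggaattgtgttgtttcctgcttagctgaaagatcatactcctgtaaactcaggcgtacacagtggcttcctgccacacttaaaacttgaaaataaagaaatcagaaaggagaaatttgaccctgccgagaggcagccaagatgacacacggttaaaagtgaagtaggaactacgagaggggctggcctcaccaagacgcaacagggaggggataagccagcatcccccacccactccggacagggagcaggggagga
Hlf: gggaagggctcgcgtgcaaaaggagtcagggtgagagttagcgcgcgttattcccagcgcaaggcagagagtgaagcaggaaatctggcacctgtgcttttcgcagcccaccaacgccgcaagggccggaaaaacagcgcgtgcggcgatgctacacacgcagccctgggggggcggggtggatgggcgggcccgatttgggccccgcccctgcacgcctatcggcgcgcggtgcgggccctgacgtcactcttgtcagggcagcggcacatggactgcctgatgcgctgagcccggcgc
Sox4: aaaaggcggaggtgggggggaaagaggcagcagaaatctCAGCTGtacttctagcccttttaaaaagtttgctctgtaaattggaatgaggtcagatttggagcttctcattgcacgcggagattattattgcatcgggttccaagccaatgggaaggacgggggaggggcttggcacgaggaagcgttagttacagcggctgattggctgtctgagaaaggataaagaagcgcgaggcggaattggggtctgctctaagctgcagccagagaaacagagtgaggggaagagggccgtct

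A set of 6 short motifs of blood-cell factors were searched on both strands, and motifs were free to overlap: AGATAA for GATA factors, TGTGGT for RUNX, TGACAG for MEIS, CCGGAAG for ETS factors such as ERG, CAGCTG for the E-box bound by TAL1 and LYL1, and TTACGTAA for HLF. Of the 32851 promoter windows in the table, 11.2% held the GATA motif, 16.8% the RUNX, 19.2% the MEIS, 8.86% the ETS, 16.3% the E-box and 0.119% the HLF motif. In the printed windows the E-box occurred in Sox4 and at the second Gata2 start, and no other match was found in them. Outside these windows, Meis1 held a RUNX and an ETS match, the first of the Prom1 starts a RUNX match, and the third Erg start a GATA and a pair of MEIS matches. These are letters in a window, not binding sites. The Gata2 windows were rich in G and C (69.3% and 73.7%), as was that of Hlf (67.3%), against a median of 52.7% over all windows, while Cd34 (50%), Sox4 (52%) and Hoxa9 (49.7%) lay near or below it.

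All 9 genes were called in the joint test over the 4 ages (p adjusted over all genes tested, threshold 0.05), as were 69.2% of the 15494 genes tested. All 9 had passed the filter on low counts, Hoxa9 through its 2-day and 7-day libraries alone. They did not move as a block. Cd34 and Gata2 were far lower at every later age than at 2 days, Hoxa9 dropped after 7 days, Meis1 ended lower, and Hlf and Sox4 were highest at 7 days. Lmo2 was highest at 7 days and Erg at 14 days, neither with a call at 6 weeks against 2 days, and Prom1 was higher at 6 weeks than at 2 days. In bulk RNA, fewer cells of a type and less RNA per cell cannot be told apart.

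**Figure D1:**
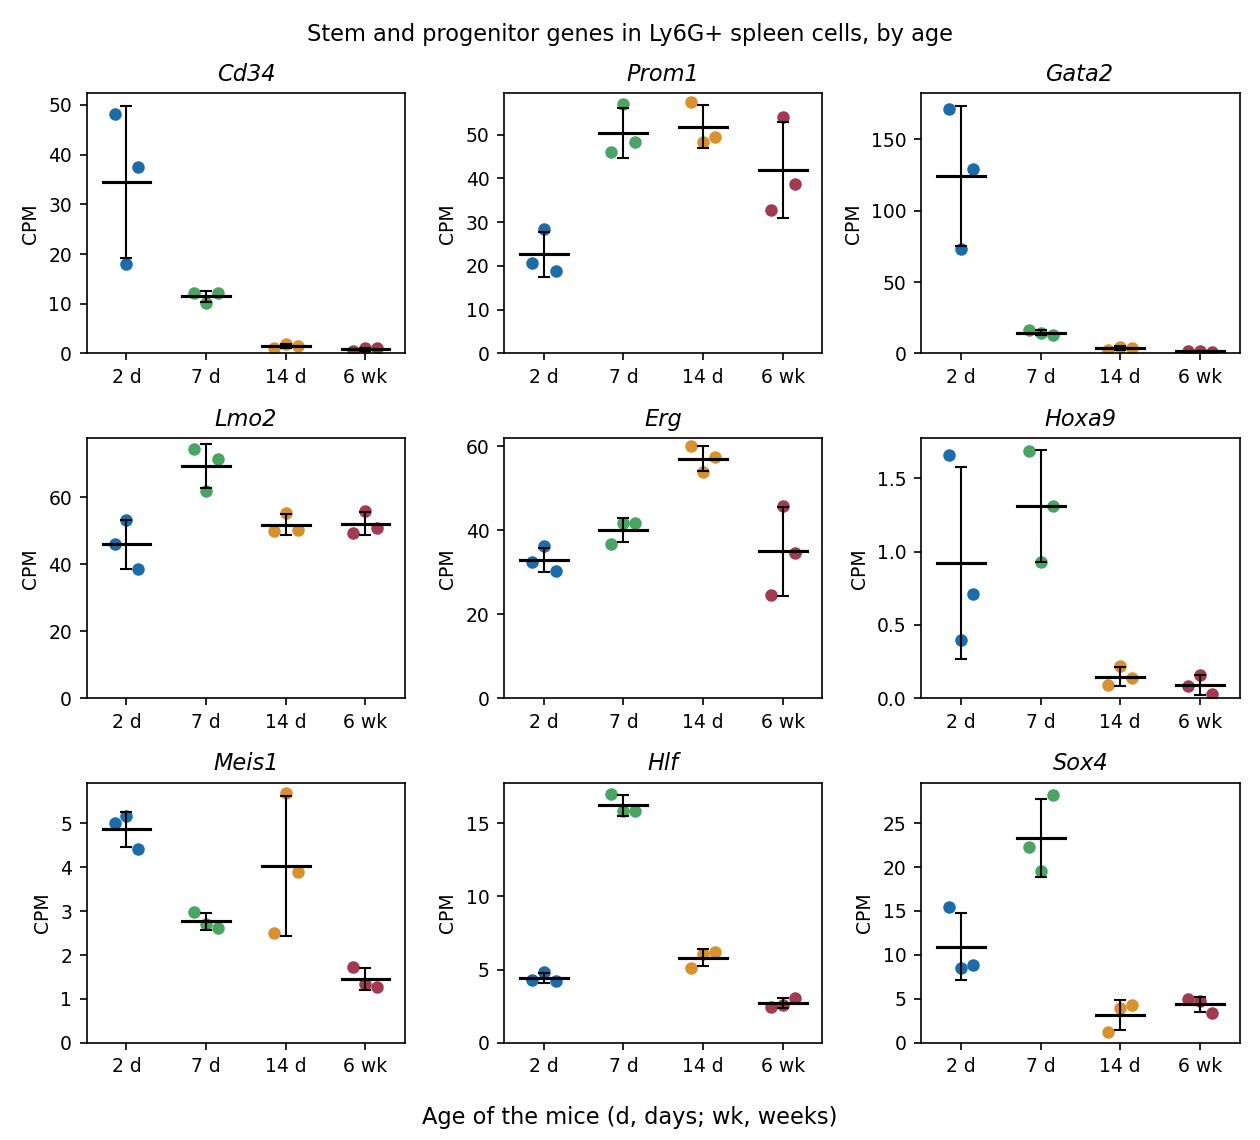
Level of each of the 9 genes in CPM (vertical axes from 0, a scale for each gene) at 4 ages (horizontal axes). Points are libraries, 3 per age, with mean (wide bar) and SD (whiskers). Cd34 and Gata2 are highest at 2 days, Hlf and Sox4 at 7 days, and Erg at 14 days.

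Cd34 encodes a sialomucin on the surface of blood progenitors, and on mouse mast cells and endothelium. The gene (ENSMUSG00000016494) lies on chromosome 1 at 194938819 to 194961279 of mm10, plus strand. Its level was 48.1, 17.9 and 37.5 CPM in the 2-day libraries, 12.2, 10.1 and 12.1 CPM at 7 days, 1.02, 1.82 and 1.4 CPM at 14 days, and 0.39, 1.01 and 1.04 CPM at 6 weeks. Every 2-day library was above every 7-day one, and these above every older one, while 14 days and 6 weeks overlapped. Cd34 averaged 11.5 ± 1.21 CPM at 7 days against 34.5 ± 15.3 CPM at 2 days (SD, n = 3 each), lower with a log2 fold change of -1.59 (SE 0.34, adjusted p = 0.00205). From there it was 8.05-fold lower at 14 days than at 7 days (adjusted p = 7.39e-05). The last interval brought no call, with 0.812 ± 0.365 CPM at 6 weeks against 1.42 ± 0.401 CPM at 14 days (log2 fold change -0.80, 95% interval -1.72 to 0.13). Over the whole span Cd34 was 42.3-fold lower at 6 weeks than at 2 days (log2 fold change -5.40, SE 0.42, adjusted p = 1.42e-06).

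Prom1, which encodes prominin 1 (CD133), a protein of membrane protrusions, went the other way. The gene (ENSMUSG00000029086) is on chromosome 5 at 43993620 to 44102032, minus strand. Its level was 20.7, 28.5 and 18.8 CPM at 2 days, 46.1, 56.9 and 48.3 CPM at 7 days, 57.4, 48.4 and 49.5 CPM at 14 days, and 32.7, 54 and 38.8 CPM at 6 weeks. All older libraries were thus above all 2-day libraries, and the 3 older ages overlapped. Prom1 was 2.23-fold higher at 7 days than at 2 days (log2 fold change 1.15, SE 0.19, adjusted p = 0.000457). It was 2.28-fold higher at 14 days and 1.85-fold higher at 6 weeks than at 2 days (adjusted p = 0.000813 and 0.00322). The 2 surface genes therefore had opposite courses, with Cd34 at 0.28 ± 0.127 TPM (counts per exonic length, scaled to the same total in every library) and Prom1 at 14.7 ± 4.08 TPM at 6 weeks.

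Gata2, a zinc finger factor that stem cells, mast cells and basophils need, showed the steepest course of the 9. The gene (ENSMUSG00000015053) lies on chromosome 6 at 88193891 to 88207032, plus strand. It measured 171, 73.4 and 129 CPM at 2 days, 16.2, 14.5 and 12.7 CPM at 7 days, 2.54, 4.71 and 3.99 CPM at 14 days, and 1.39, 1.91 and 0.875 CPM at 6 weeks. The libraries of no pair of ages overlapped. The level at 7 days, 14.5 ± 1.75 CPM against 124 ± 48.9 CPM at 2 days, was 8.6-fold lower (log2 fold change -3.10, SE 0.32, adjusted p = 1.18e-05). It was lower again by 3.85-fold at 14 days against 7 days (adjusted p = 0.00045) and by 2.69-fold at 6 weeks against 14 days (adjusted p = 0.0159). That last call ended with limma-voom (adjusted p = 0.0718) and when the second 14-day, the first 6-week or the third 6-week library was left out (-1.24, -1.42 and -1.18 on the log2 scale, against -1.43 with all 12). At 6 weeks it was 89.1-fold lower than at 2 days (log2 fold change -6.48, SE 0.38, adjusted p = 1.83e-07).

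Lmo2 encodes a LIM-domain adaptor that bridges GATA and TAL1 proteins, and it held a high level throughout. The gene (ENSMUSG00000032698) spans chromosome 2 at 103957986 to 103981878, plus strand. Its level was 45.9, 53.2 and 38.7 CPM at 2 days, 74.4, 61.8 and 71.3 CPM at 7 days, 50, 55.3 and 50.1 CPM at 14 days, and 49.4, 55.9 and 50.9 CPM at 6 weeks. The 7-day libraries stood above all others, and the other 3 ages overlapped. Lmo2 was 1.51-fold higher at 7 days than at 2 days (log2 fold change 0.59, SE 0.12, adjusted p = 0.00202) and 1.34-fold lower at 14 days than at 7 days (adjusted p = 0.0158, or 0.0543 without 14-day replicate 3). With 52.1 ± 3.42 CPM at 6 weeks against 45.9 ± 7.26 CPM at 2 days it was not called (95% interval of the log2 fold change -0.09 to 0.45), but passed without 2-day replicate 2 (log2 fold change 0.29).

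Erg, an ETS factor of stem cells, megakaryocytes and endothelium, was highest at 14 days. The Erg gene (ENSMUSG00000040732) spans chromosome 16 at 95359169 to 95586593, minus strand. It measured 32.3, 36.1 and 30.3 CPM at 2 days, 36.7, 41.7 and 41.6 CPM at 7 days, 59.9, 53.8 and 57.3 CPM at 14 days, and 24.5, 45.8 and 34.5 CPM at 6 weeks. The 14-day libraries lay above all others, and the 6-week libraries spread across the range of both younger ages. Erg was 1.73-fold higher at 14 days than at 2 days (log2 fold change 0.79, SE 0.18, adjusted p = 0.00617). It was 1.63-fold lower at 6 weeks than at 14 days (adjusted p = 0.0164, or 0.0601 without 6-week replicate 3). The step of 14 days against 7 days (log2 fold change 0.51, adjusted p = 0.032) lost its call when any of the 14-day or 7-day libraries or 2-day replicate 3 was left out, and with scaling by library totals alone. Itgb3, a platelet integrin, was also highest at 14 days, at 87.9 ± 6.31 CPM against 56.7 ± 11.3 CPM at 7 days. Its list was mixed: of 9 megakaryocyte and platelet markers tested, 3 were higher and 4 lower at 14 than at 7 days. Of all genes tested, 24.0% were higher and 21.9% lower. Treml1, of that list, passed the filter on low counts only with its 2-day or 7-day libraries. Itga2b averaged 5.46 ± 0.518 CPM at 14 days against 7.89 ± 0.958 CPM at 7 days. The part of megakaryocytes in the course of Erg was not tested. Across the full span Erg was at 34.9 ± 10.7 CPM at 6 weeks and 32.9 ± 2.98 CPM at 2 days (95% interval of the log2 fold change -0.30 to 0.47).

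Hoxa9, the homeobox factor of the HoxA cluster that drives progenitor growth, was the rarest of the 9. Hoxa9 (ENSMUSG00000038227) is on chromosome 6 at 52223100 to 52231089, minus strand. Its counts were 65, 12 and 26 at 2 days, 69, 35 and 52 at 7 days, 3, 8 and 5 at 14 days, and 3, 6 and 1 at 6 weeks. The younger and older pairs of ages did not overlap, and within each pair the libraries did. Hoxa9 was not called between 7 days (1.31 ± 0.382 CPM) and 2 days (0.922 ± 0.658 CPM), with a log2 fold change of 0.49 (95% interval -0.62 to 1.60), or 1.28 when 2-day replicate 1 was left out. Hoxa9 passed the filter on low counts through its 2-day and 7-day libraries alone, so its calls at later ages carry that selection. At 14 days it was 8.7-fold lower than at 7 days (log2 fold change -3.12, SE 0.61, adjusted p = 0.0014). It was 9.96-fold lower at 6 weeks than at 2 days (adjusted p = 0.00164), or -3.32 on the log2 scale. That value became -2.56 when 2-day replicate 1 was left out and -3.99 when 6-week replicate 2 was.

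Meis1, the homeobox partner of HOXA9, followed a different course at a low level. Meis1 (ENSMUSG00000020160) is on chromosome 11 at 18879817 to 19018985, minus strand. It measured 5.01, 5.17 and 4.41 CPM at 2 days, 2.99, 2.7 and 2.61 CPM at 7 days, 2.51, 5.69 and 3.88 CPM at 14 days, and 1.73, 1.35 and 1.28 CPM at 6 weeks. The 6-week libraries were below all others, the 7-day ones were below the 2-day ones, and the 14-day ones spanned both. Meis1 was 3.34-fold lower at 6 weeks than at 2 days (log2 fold change -1.74, SE 0.27, adjusted p = 0.000309) and 2.77-fold lower at 6 weeks than at 14 days (adjusted p = 0.00277). It was 1.75-fold lower at 7 days than at 2 days (adjusted p = 0.0207), a call that ended without 2-day replicate 1 or any 7-day library and with scaling by library totals (adjusted p from 0.0539 to 0.0903). Between 14 and 7 days it was not called (log2 fold change 0.54, 95% interval -0.02 to 1.10), except without 14-day replicate 1, when it was higher at 14 days (0.79).

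Hlf encodes a PAR-type leucine zipper factor that keeps stem cells at rest, and it peaked at 7 days. Its locus (ENSMUSG00000003949) is chromosome 11 at 90336536 to 90390895, minus strand. It measured 4.27, 4.81 and 4.19 CPM at 2 days, 17, 15.8 and 15.8 CPM at 7 days, 5.14, 6.07 and 6.2 CPM at 14 days, and 2.42, 2.62 and 3.09 CPM at 6 weeks. The libraries of no pair of ages overlapped, and the spread within each age was small. Hlf was 3.67-fold higher at 7 days than at 2 days (log2 fold change 1.87, SE 0.14, adjusted p = 1.8e-06) and 2.79-fold lower at 14 days than at 7 days (adjusted p = 1.12e-05). At 6 weeks it was 2.14-fold lower than at 14 days (adjusted p = 0.000398) and 1.63-fold lower than at 2 days (adjusted p = 0.00231). Between 14 and 2 days Hlf was not called (log2 fold change 0.39, adjusted p = 0.0613).

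Sox4, an SRY-box factor of progenitors and early lymphoid cells, was also highest at 7 days. Its single exon (ENSMUSG00000076431) lies on chromosome 13 at 28948919 to 28953713, minus strand. It measured 15.4, 8.56 and 8.9 CPM at 2 days, 22.3, 19.5 and 28.2 CPM at 7 days, 1.2, 3.95 and 4.34 CPM at 14 days, and 5.04, 4.71 and 3.42 CPM at 6 weeks. All 7-day libraries were above all 2-day ones, which were above all older ones, while 14 days and 6 weeks overlapped. Sox4 was 2.12-fold higher at 7 days than at 2 days (log2 fold change 1.09, SE 0.36, adjusted p = 0.0259), with no call without 2-day replicate 2, 2-day replicate 3 or 7-day replicate 3 (adjusted p from 0.0567 to 0.0835). It was 7.35-fold lower at 14 days than at 7 days (adjusted p = 0.000126) and 5.31-fold lower at 6 weeks than at 7 days (adjusted p = 0.000272). Against 2 days it was 2.5-fold lower at 6 weeks (adjusted p = 0.0141, but 0.0621 without 2-day replicate 1 and 0.0608 without 6-week replicate 3). A noncoding gene of the opposite strand, Gm26735, shares 2616 exonic bases with Sox4 and had 0 to 40 counts per library, and reads of the shared bases cannot be told apart without strand.

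**Figure D2:**
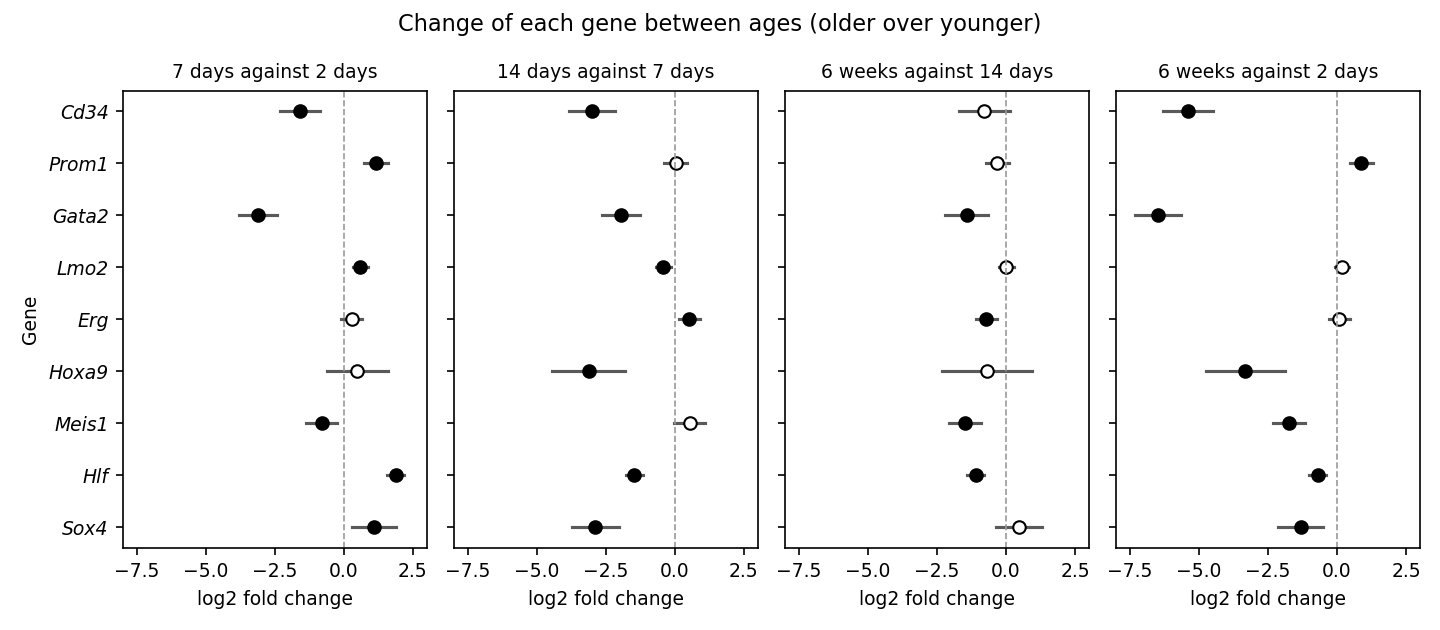
Change of each gene (rows) in 3 successive steps of age and over the whole span, as log2 fold change of the older over the younger age (horizontal axes). Lines are 95% intervals, filled points have an adjusted p below 0.05 and open points do not. Over the whole span Gata2 (-6.48) and Cd34 (-5.40) lie farthest below 0, and Prom1 (0.88) lies above it.

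Counted by step, 7 of the 9 genes differed between 7 and 2 days, 4 higher and 3 lower at 7 days, where 48.7% of all genes tested differed (22.9% higher, 25.8% lower). Between 14 and 7 days it was again 7, with 1 higher and 6 lower at 14 days, beside 45.9% of all genes (24.0% higher, 21.9% lower). Between 6 weeks and 14 days 4 differed, each lower at 6 weeks, beside 18.9% of all genes (9.26% higher, 9.68% lower), and 2 without 6-week replicate 3. At 6 weeks against 2 days 1 gene was higher and 6 were lower, beside 40.4% of all genes (19.7% higher, 20.7% lower). At 6 weeks against 7 days 7 differed, each lower at 6 weeks, beside 51.0% (26.6% higher, 24.5% lower), and at 14 against 2 days 2 were higher and 4 lower, beside 25.1% (12.8% higher, 12.3% lower). The median log2 fold change of the 9 was -1.32 at 6 weeks against 2 days and -2.41 at 6 weeks against 7 days, where the medians of all genes tested were -0.04 and 0.01. At 7 days against 2 days it was 0.49, beside -0.01. Scaling by library totals alone shifted the median of all genes to 0.14 at 7 days against 2 days and to -0.16 at 6 weeks against 7 days.

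Per length, the order of the 9 genes changed with age. At 2 days Gata2 (58 ± 30.5 TPM) and Lmo2 (50.7 ± 7.69 TPM) led and did not differ beyond their spread, followed by Erg (22.8 ± 2.76 TPM) and Cd34 (12 ± 6.75 TPM). At 7 days Lmo2 (85 ± 8.3 TPM) led, ahead of Erg (30.7 ± 2.21), Prom1 (18.7 ± 2.06) and Sox4 (13 ± 2.52 TPM), while Gata2 (7.13 ± 0.848) and Hlf (6.45 ± 0.267 TPM) overlapped. At 14 days and 6 weeks the same 3 genes led: Lmo2 with 65.1 ± 7.35 and 60.5 ± 4.9 TPM, Erg with 44.7 ± 1.92 and 25.4 ± 8.11 TPM, and Prom1 with 19.5 ± 0.443 and 14.7 ± 4.08 TPM. At 6 weeks the other 6 genes each averaged 2.31 TPM or less, and Hoxa9 was last at every age, with 0.0409 ± 0.0305 TPM at 6 weeks. Hoxa9 and Meis1 did not differ beyond their spread at 7 days (0.624 ± 0.183 and 0.699 ± 0.0489 TPM).

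Mast cell and basophil markers moved in the same direction as Cd34 and Gata2. All 13 of the list were lower at 7 days than at 2 days, beside 25.8% of all genes tested. Tph1, with 9, 8 and 5 counts at 7 days, passed the filter on low counts through its 2-day libraries alone. With Hdc, which neutrophils also transcribe and which made up most of the list later on, the sum ran from 3970 to 6495 CPM at 2 days, 653 to 867 CPM at 7 days, 1011 to 1083 CPM at 14 days and 1408 to 1613 CPM at 6 weeks. Without Hdc the remaining 12, led by the tryptase gene Tpsb2, summed to 2734 to 5189 CPM at 2 days, 125 to 153 at 7 days, 12.5 to 22.2 at 14 days and 8.28 to 20.9 at 6 weeks. Tpsab1 and Mrgprb1 had no count at 14 days, nor at 6 weeks, when Tph1 had none either. Cpa3, the mast cell carboxypeptidase, was 51.3-fold lower at 7 days than at 2 days (adjusted p = 2.22e-07), where Gata2 was 8.6-fold and Cd34 3.02-fold lower. The part of mast cells in the course of Gata2 and Cd34 was not tested.

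The 2-day libraries also differed among themselves, in several marker lists. Relative to replicates 1 and 3, replicate 2 had 0.373 and 0.479 times the Cd34 level, 0.429 and 0.568 times the Gata2 level and 0.238 and 0.555 times the Hoxa9 level. Its mast cell and basophil sum was 0.611 and 0.62 times, and its endothelial and stromal sum 0.42 and 0.448 times, that of replicates 1 and 3. The erythroid sum was 0.488 and 0.566 times and the cell cycle sum 0.494 and 0.629 times theirs. In the other direction, its sums were 1.28 and 1.16 times theirs for neutrophils, 1.4 and 1.25 times for monocytes and macrophages, and 1.29 and 1.35 times for megakaryocytes. Likewise, replicate 2 had 1.38 and 1.52 times the Prom1, 1.16 and 1.38 times the Lmo2, 1.12 and 1.19 times the Erg and 1.13 and 1.15 times the Hlf level. For Sox4 the level was 0.555 and 0.962 times, and for Meis1 1.03 and 1.17 times, that of replicates 1 and 3. The 9 genes thus fell on both sides of 1 within a single age. Its sums were 0.774 and 0.986 times theirs for B cells, 0.976 and 1.31 times for granulocyte progenitors and 1.03 and 1.24 times for dendritic cells. The sum of the 40 other progenitor genes described below was 1.1 and 1.17 times. Mpo was at 64.4 CPM in replicate 2 against 279 and 167 CPM, and Cebpe at 424 CPM against 151 and 155 CPM. At 6 weeks against 2 days the members called numbered 8 without replicate 2, and 6 without 2-day replicate 1 or without 6-week replicate 3.

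Endothelial and stromal markers, led by Pecam1 and Col1a1, summed to 61.5 to 147 CPM at 2 days, 85.9 to 95.9 at 7 days, 51 to 56 at 14 days and 75.6 to 80.4 at 6 weeks. Of 12 tested, 11 were lower at 6 weeks than at 2 days and 1, Pecam1, was higher, beside 20.7% and 19.7% of all genes tested. Dcn passed the filter on low counts only with its 2-day libraries. Tie1, Ptprb and Col1a2 passed it only with their 2-day or 7-day libraries. The calls of these genes carry that selection. Lum had no count at 6 weeks. Pecam1 made up most of the sum at 14 days (37.2 ± 8.49 CPM) and at 6 weeks (70.6 ± 1.81 CPM), and averaged 35.5 ± 8.33 CPM at 2 days. Col1a1 averaged 4.42 ± 1.11 CPM at 6 weeks against 27.5 ± 8.45 CPM at 2 days. Granulocyte progenitor genes, led by Cebpe and Mpo, summed to 464 to 623 CPM at 2 days, 737 to 892 at 7 days, 363 to 421 at 14 days and 276 to 441 at 6 weeks. The higher sum at 7 days lay mostly in Cebpe, at 491 ± 23.3 CPM against 243 ± 156 CPM at 2 days. Mpo averaged 141 ± 35.4 CPM at 7 days against 170 ± 107 CPM at 2 days. At 7 against 2 days 2 of the 8 were higher and 1 lower, beside 22.9% and 25.8% of all genes tested. Of these 8, 5 were lower at 14 than at 7 days, as were 6 of the 9 members (Cd34, Gata2, Lmo2, Hoxa9, Hlf and Sox4) and 21.9% of all genes tested. Mpo, the myeloperoxidase of primary granules, was 7.54-fold lower at 6 weeks than at 2 days (adjusted p = 0.000657), or -2.92 on the log2 scale, and -3.51 when 6-week replicate 2 was left out. The part of either list in the members' courses was not tested.

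Markers of 3 other groups had their highest sums at 7 days, as Hlf, Sox4 and Lmo2 did. Erythroid genes, led by Hbb-bs and Hba-a1, summed to 346 to 708 CPM at 2 days, 2637 to 4422 at 7 days, 94 to 275 at 14 days and 137 to 424 at 6 weeks, and 14 of 15 were higher at 7 than at 2 days. Cell cycle genes, led by Mki67 and Top2a, summed to 444 to 899 CPM at 2 days, 1914 to 2097 at 7 days, 1033 to 1075 at 14 days and 501 to 695 at 6 weeks, with all 14 higher at 7 than at 2 days. Genes of B cells and their precursors, led by Cd79a and Cd79b, summed to 296 to 383 CPM at 2 days, 573 to 650 at 7 days, 141 to 382 at 14 days and 366 to 472 at 6 weeks. Of these 13, 8 were higher at 7 than at 2 days and 11 lower at 14 than at 7 days. Dntt passed the filter on low counts only with its 7-day libraries. Rag1, Rag2, Igll1 and Vpreb1 passed it only with their 2-day or 7-day libraries. The calls of these genes carry that selection. Among all genes tested, 22.9% were higher at 7 than at 2 days and 21.9% lower at 14 than at 7 days. Rag1, a recombinase of lymphoid precursors, averaged 0.0985 ± 0.086 CPM at 6 weeks against 33.1 ± 3.45 CPM at 7 days, and Rag2 had no count at 6 weeks. In 14-day replicate 1 Sox4 (1.2 CPM) was the lowest of the 12 libraries, and so were the B cell (141 CPM), erythroid (94 CPM) and T and NK cell (40.9 CPM) sums. What these cells contributed to Hlf, Sox4 and Lmo2 was not tested.

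**Figure D3:**
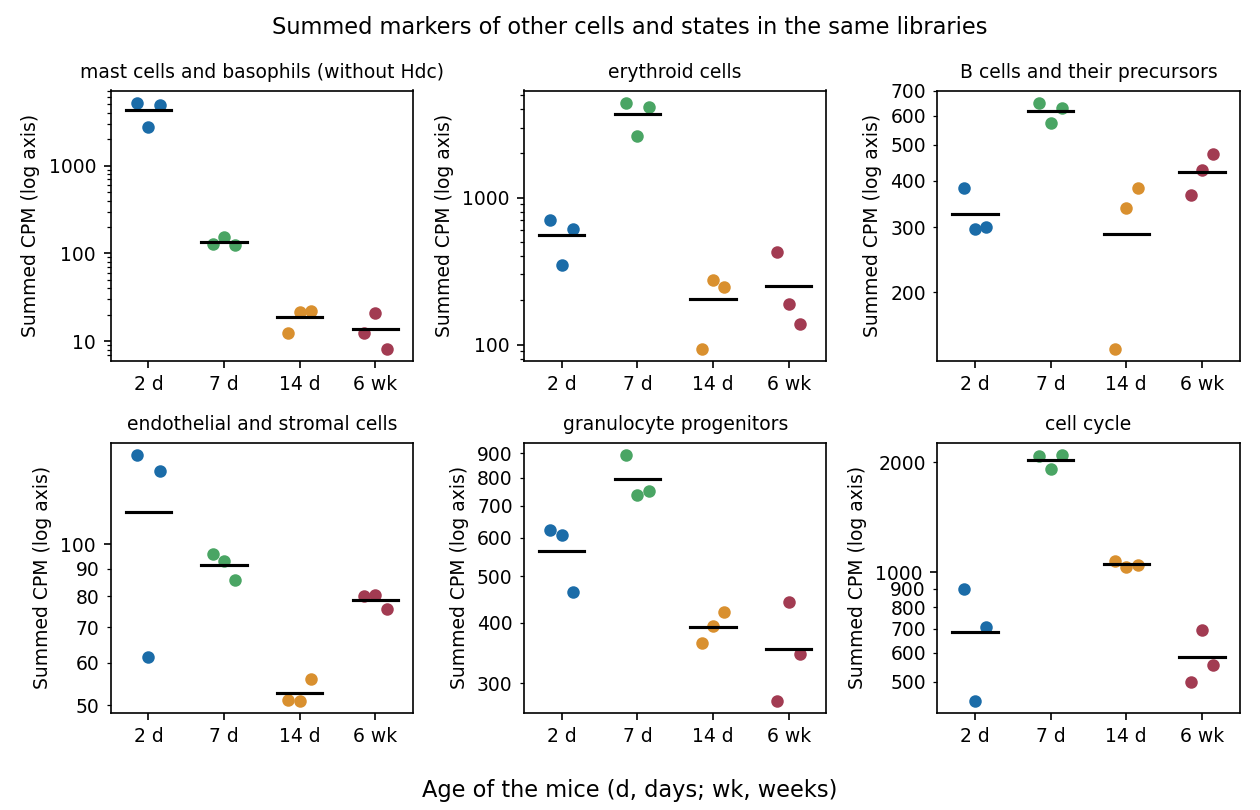
Summed CPM of 6 marker lists (vertical log axes) at 4 ages (horizontal axes), with 3 libraries per age as points and their mean as a bar. The mast cell and basophil list, drawn without Hdc, lies at 2734 to 5189 CPM at 2 days and at 8.28 to 20.9 CPM at 6 weeks, and the erythroid and cell cycle lists are highest at 7 days. The endothelial and stromal sum is mostly Pecam1 at 14 days and 6 weeks, and the granulocyte progenitor sum is mostly Cebpe from 7 days on.

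A list of 40 other stem and progenitor genes gave the wider setting, of which 38 were tested. With age, 34 of them differed. At 7 days against 2 days 13 were higher and 5 lower, and at 14 against 7 days 5 were higher and 21 lower. At 6 weeks against 2 days 9 were higher and 20 lower, with a median log2 fold change of -0.60, and at 6 weeks against 7 days 6 were higher and 23 lower (median -0.77). At 14 against 2 days 3 were higher and 15 lower. At 6 weeks against 14 days 4 were higher and 6 lower, and 5 in all were called without 6-week replicate 3. The shares of all genes given above apply here too. Some genes of the list, such as Mycn, passed the filter on low counts only with their 2-day or 7-day libraries. Their calls of a lower level at later ages carry that selection.

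Among receptors of this list, Kit, the stem cell factor receptor of progenitors and mast cells, was at 22.7 ± 7.25 CPM at 6 weeks against 103 ± 34.4 CPM at 2 days (log2 fold change -2.18, SE 0.26, adjusted p = 3.8e-05). Most of that difference was already present at 7 days (24.9 ± 2.95 CPM, log2 fold change -2.05 against 2 days, adjusted p = 5.31e-05). Adgrg1, an adhesion receptor of stem cells and cytotoxic lymphocytes, was 19.7-fold lower at 6 weeks than at 2 days (adjusted p = 8.96e-06). Flt3, the receptor of multipotent progenitors and dendritic cells, was higher at 6 weeks, with 18.4 ± 7.27 CPM against 7.12 ± 3.52 CPM at 2 days (log2 fold change 1.37, adjusted p = 0.00875). It rose 5.46-fold at 14 against 7 days (adjusted p = 0.000227), and dendritic cell markers summed to 600 to 866 CPM at 14 days, against 127 to 168 CPM at 7 days. The part of dendritic cells in Flt3 was not tested.

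Factors that bind with GATA2, LMO2 and ERG had courses of their own. Tal1, a basic helix-loop-helix factor of stem and erythroid cells, averaged 14 ± 2.73 CPM at 2 days, 39.3 ± 5.38 at 7 days, 2.58 ± 0.694 at 14 days and 4.34 ± 0.477 CPM at 6 weeks. It was 2.8-fold higher at 7 than at 2 days (adjusted p = 7.99e-05) and 15.2-fold lower at 14 than at 7 days (adjusted p = 3.72e-07). Its relative Lyl1 was at 93.6 ± 7.09 CPM at 6 weeks against 201 ± 83.5 CPM at 2 days (adjusted p = 0.00151). Ldb1, the LIM-binding protein that joins LMO2 complexes, was 1.52-fold lower at 6 weeks than at 2 days (adjusted p = 0.000992). Runx1 was at 75.4 ± 6.36 CPM at 6 weeks against 72.4 ± 20.2 CPM at 2 days and was not called (log2 fold change 0.06, 95% interval -0.30 to 0.42), except with 2-day replicate 2 left out (0.30). It was 1.42-fold higher at 7 than at 2 days (adjusted p = 0.0231, or 0.0678 without 7-day replicate 2). Fli1 had a log2 fold change of 0.11 at 6 weeks against 2 days and was called only without 2-day replicate 2 (0.32). Of the 7 partners, 5 differed with age, a share near the 69.2% of all genes tested. At 14 days against 7 days 5 were lower, where 21.9% of all genes were.

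Myb, needed for progenitor growth, averaged 31.4 ± 8.5 CPM at 2 days, 69.9 ± 5.78 at 7 days, 24.2 ± 1.44 at 14 days and 15.4 ± 4.02 CPM at 6 weeks. It was 2.23-fold higher at 7 than at 2 days (adjusted p = 0.000572) and 2.04-fold lower at 6 weeks than at 2 days (adjusted p = 0.00169). Gfi1b, a repressor of erythroid and megakaryocyte cells, was 2.02-fold higher at 7 than at 2 days (adjusted p = 0.0131, with no call without 7-day replicate 1 or 3) and 13.8-fold lower at 6 weeks than at 2 days (adjusted p = 7.06e-06). Mycn, a growth regulator of the MYC family, was lower at 6 weeks than at 2 days (log2 fold change -3.94, SE 0.67, adjusted p = 0.000613, or -4.88 when 6-week replicate 3 was left out). Mycn passed the filter on low counts through its 2-day and 7-day libraries alone, with 0 to 6 counts in each later one.

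Among the 9 partners and relatives of HOXA9 and MEIS1, 8 were tested and 4 differed with age, a smaller share than the 69.2% of all genes tested. Meis2, a homologue of Meis1, had 102, 55 and 88 counts at 2 days, 4, 4 and 10 at 7 days, 0, 0 and 2 at 14 days, and 1, 1 and 0 at 6 weeks (adjusted p = 1.63e-05 at 6 weeks against 2 days). Nearly all of its counts were thus in the 2-day libraries, through which alone it passed the filter on low counts. Hoxb4, a HoxB factor that promotes stem cell growth, took the opposite course. It averaged 0.516 ± 0.17 CPM at 2 days, 1.94 ± 0.423 at 7 days, 4.42 ± 0.877 at 14 days and 11.2 ± 1.17 CPM at 6 weeks, and was 21.7-fold higher at 6 weeks than at 2 days (log2 fold change 4.44, SE 0.28, adjusted p = 2.92e-07). Of the 3 relatives of Hlf, Dbp was higher at 6 weeks than at 2 days by 0.84 on the log2 scale (adjusted p = 0.00898), while Tef and Nfil3 were not called in any comparison.

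**Figure D4:**
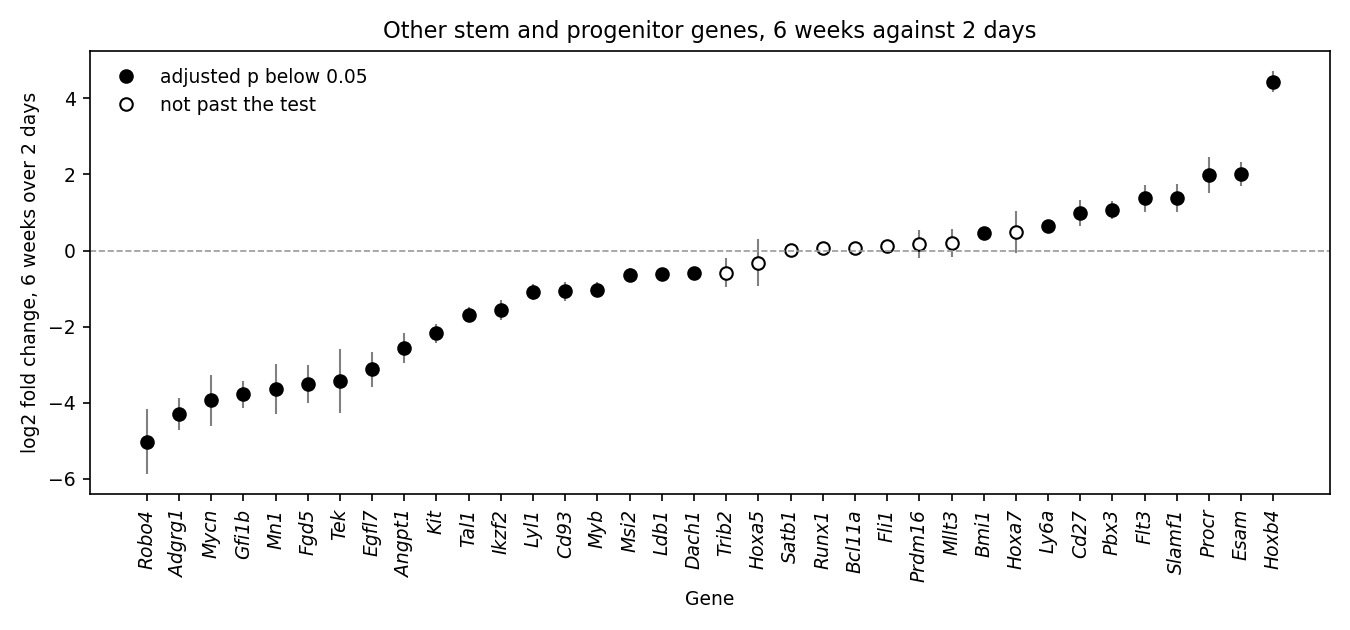
Log2 fold change at 6 weeks over 2 days (vertical axis) of 36 of the 38 other stem and progenitor genes tested (horizontal axis, sorted), with SE as whiskers. Filled points have an adjusted p below 0.05. Hoxb4 (4.44) is the highest, and of the called genes drawn 18 lie below 0 and 9 above.

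For each of the 9 genes, the likest genes were sought by the root mean square difference between mean-centred log2 CPM over the 12 libraries, a value of 0 being an identical course. This describes these libraries, which share their ages and sorts, and carries no test. The measure grows with the spread of a member about its own mean, from 0.250 for Lmo2 to 2.452 for Gata2. Values of different members are therefore not comparable. Gata2 was closest to Cd200r3, a receptor of mast cells and basophils (0.433), and Rab27b, a regulator of granule release (0.509), where the median over all genes was 2.483. Cd34 was closest to Ptk7, a receptor-like protein of progenitors (0.380), and Mcpt8, a basophil protease (0.552). Hlf was closest to Ccne2, the cyclin E2 gene of S phase entry (0.220), and Zranb3, a gene of replication fork repair (0.259). Sox4 was closest to Cbx2, a Polycomb subunit (0.304), and Mybpc2 (0.351). Meis1 was closest to Ikzf2, an Ikaros-family factor (0.204), and Adamts7 (0.212). Hoxa9, with few counts, was closest to Hacd1 (0.517) and Bag2 (0.520). Prom1 was closest to Abcc5 (0.114) and Igf2r (0.126), Erg to St3gal2 (0.161) and Sept5 (0.187), and Lmo2 to Rpia (0.088) and Ptges2 (0.088), with medians of 0.684, 0.567 and 0.497 over all genes.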

How the data were processed

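The authors deposited whole-number counts per Ensembl gene for the 12 libraries in 1 table. The tools named by the submitters' processing notes are DESeq2, with no version, and RSEM 1.2.3, and the build is mm10. Their roles are not stated, so the counts may be rounded RSEM estimates. Per the labels' protocols, Trizol RNA was primed with random hexamers. Strand use is not stated, so reads of overlapping antisense genes cannot be told apart. Symbols, positions and exonic lengths came from GENCODE M21 (37570 of 38887 identifiers matched), whose assembly is that of mm10.

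Library sizes were normalized by edgeR's TMM method, and filterByExpr (minimum count 10) left 15494 genes. The test was edgeR's quasi-likelihood test (edgeR 4.0.16, R 4.3.3), 1 model over all 12 libraries with age as its term, for a joint test and 6 pairs of ages, older over younger. P-values were adjusted over all genes tested (Benjamini-Hochberg, threshold 0.05). Standard errors were derived from the fold change and its F statistic. Alternatives were DESeq2 1.42.0, limma-voom (limma 3.58.1), library totals, no filter, a replicate block, fits of 2 ages alone and each library left out.

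The 9 members and all lists were chosen with earlier results of these data known. Named besides the members were Kit, Flt3, Myb, Runx1, the 6 called genes of the progenitor and partner lists with the largest change at 6 weeks against 2 days and at least 1 CPM at some age, the 2 most abundant genes of each marker list and the 2 likest genes of each member, and 2 genes of these lists, counted in the totals, are not reported here by name or drawn. Tal1, Lyl1, Ldb1, Fli1, Dbp, Tef, Nfil3, Cpa3, Rag1, Rag2 and the mast cell sum without Hdc were chosen after their values were seen. Replicates of an age differed by more than sampling noise (chi-square per degree of freedom 9.06 to 167).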

Additional observations from a re-analysis of the deposited data

How the results depend on the processing

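Counts of called genes for the 9 members and for the 40 other progenitor genes stayed within 1.5 times of those reported under DESeq2, limma-voom, library totals, no filter, the replicate block and fits of 2 ages alone (82 of 82). Leaving out 1 library kept 166 of 168 such counts within that range. The exceptions were at 6 weeks against 14 days, where members called ranged from 2 to 4 and other progenitor genes from 5 to 14. Of 336 fold changes of single genes under the other alternatives 333 kept direction and call and 3 lost the call (Gata2 at 6 weeks against 14 days with limma-voom, and Meis1 at 7 against 2 days and Erg at 14 against 7 days with library totals). Of 672 with 1 library left out, 641 kept both, 24 lost the call and 4 gained one. The 3 that changed sign had no call. At 6 weeks against 2 days, Erg (0.09 with all libraries) ranged from -0.15, when 6-week replicate 2 was left out, to 0.29. Runx1 ranged from -0.05, when 2-day replicate 3 was left out, to 0.30, and was 0.00 when 6-week replicate 2 was left out. Their causes were not tested. Libraries of the same replicate number were no more alike across ages than others. Deviations from the age mean correlated between -0.221 and 0.174 over 18 same-numbered pairs, 2 of them above 0.1. Over 36 pairs of different number they correlated between -0.166 and 0.205, 6 of them above 0.1. These values cannot show whether libraries were collected in pairs. With the replicate block, members called at 6 weeks against 2 days again numbered 7. Depth limits Hoxa9, at 1 to 8 counts per library from 14 days on.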
